A study of Mus musculus with 6 samples.

Results

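A set of 42 genes that build the centromere and kinetochore or drive mitosis was examined, chosen by name among the 78317 gene rows of the table (all rows but the spike-in sequences). Each of the 42 matched a single row, and all 42 passed the filter on low counts, which kept 13372 genes. RNA was sequenced from MCEC, a mouse cardiac endothelial cell line, in 3 libraries with a short hairpin RNA against the atypical cadherin gene Fat4 (genotype ShFat4, called Fat4 knockdown here) and 3 wild-type control libraries. No label tells whether the control cells carried a hairpin without a target, how many hairpins or clones were used, or whether the 3 libraries of a genotype are separate cultures. The p-values therefore speak only of library-to-library spread, possibly of technical origin.

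Every chromosome is attached to the spindle through the kinetochore, which is built anew in each mitosis on centromere chromatin that carries the histone H3 variant CENP-A. The constitutive centromere-associated network (CCAN) sits on that chromatin through the cell cycle, and the NDC80 complex and Knl1 bound to it in mitosis hold the microtubules and recruit the spindle checkpoint. Most genes of the machinery are transcribed late in the cell cycle under the MuvB, B-Myb and FoxM1 factors, so that in a culture their RNA level follows the share of cells close to division. In bulk RNA, fewer cells in that phase and less RNA per cell cannot be told apart.

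Fat4 had 0.71, 0.98 and 0.82 CPM (counts scaled to a common library total) in the knockdown libraries, against 0.97, 1.94 and 2.60 CPM in the control libraries, so that control replicate 1 lay within the knockdown range (log2 fold change -1.17, SE 0.36, edgeR quasi-likelihood adjusted p = 0.0391). That call was not made in 9 of 17 other fits, among them DESeq2, which gave Fat4 no adjusted p. Library totals ran from 10509069 to 11538010 counts in knockdown and from 10305810 to 11870091 counts in control libraries. All 8 defining endothelial markers averaged under 1 CPM in both groups, and Vwf, Erg, Cldn5 and Tie1 had no count in any of the 6 libraries, which for counting error alone leaves room for levels of 0.253 to 0.291 CPM (3 counts in a library). The 8 mesothelial markers summed to 1426 to 1470 CPM in knockdown and 1651 to 1808 CPM in control libraries, and 3 of them fell, so the endothelial label was not borne out by these markers. Leukocyte and cardiomyocyte markers summed to at most 4.01 and 1.80 CPM in knockdown and 4.37 and 1.41 CPM in control libraries.

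The 42 genes together took 0.443%, 0.453% and 0.449% of all counts in the knockdown libraries, against 0.438%, 0.453% and 0.459% in the control libraries, so the groups overlapped in the total. In the Fat4 knockdown, 7 rose (Itgb3bp, Mad2l1, Cenpq, Spc25, Cenpw, Nuf2 and Cenpa) and 1 fell (Bub1b), by edgeR's quasi-likelihood test with Benjamini-Hochberg adjustment over all genes at 0.05. The 8 make up 19.0% of the members, near the 16.8% called among all 13372 genes tested, of which 8.73% were higher and 8.04% lower. By the same edgeR test, 17 of the 42 members and 4124 of all 13372 genes had an unadjusted p under 0.05. The members' median log2 fold change was 0.08, beside -0.01 over all tested genes, and their range was -0.23 to 0.74. The 3 knockdown values did not overlap the 3 control values for 17 members (40.5%, 11 higher and 6 lower), against 34.9% of all tested genes. Scaling by library size alone kept the 8 calls and added Kif11, Kif23, Plk1 and Top2a as lower, which gave 7 higher and 5 lower, and over all genes 841 higher and 1678 lower in place of 1167 and 1075. The number of members called was 14 without control replicate 1 and 5 without control replicate 3.

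**Figure D1:**
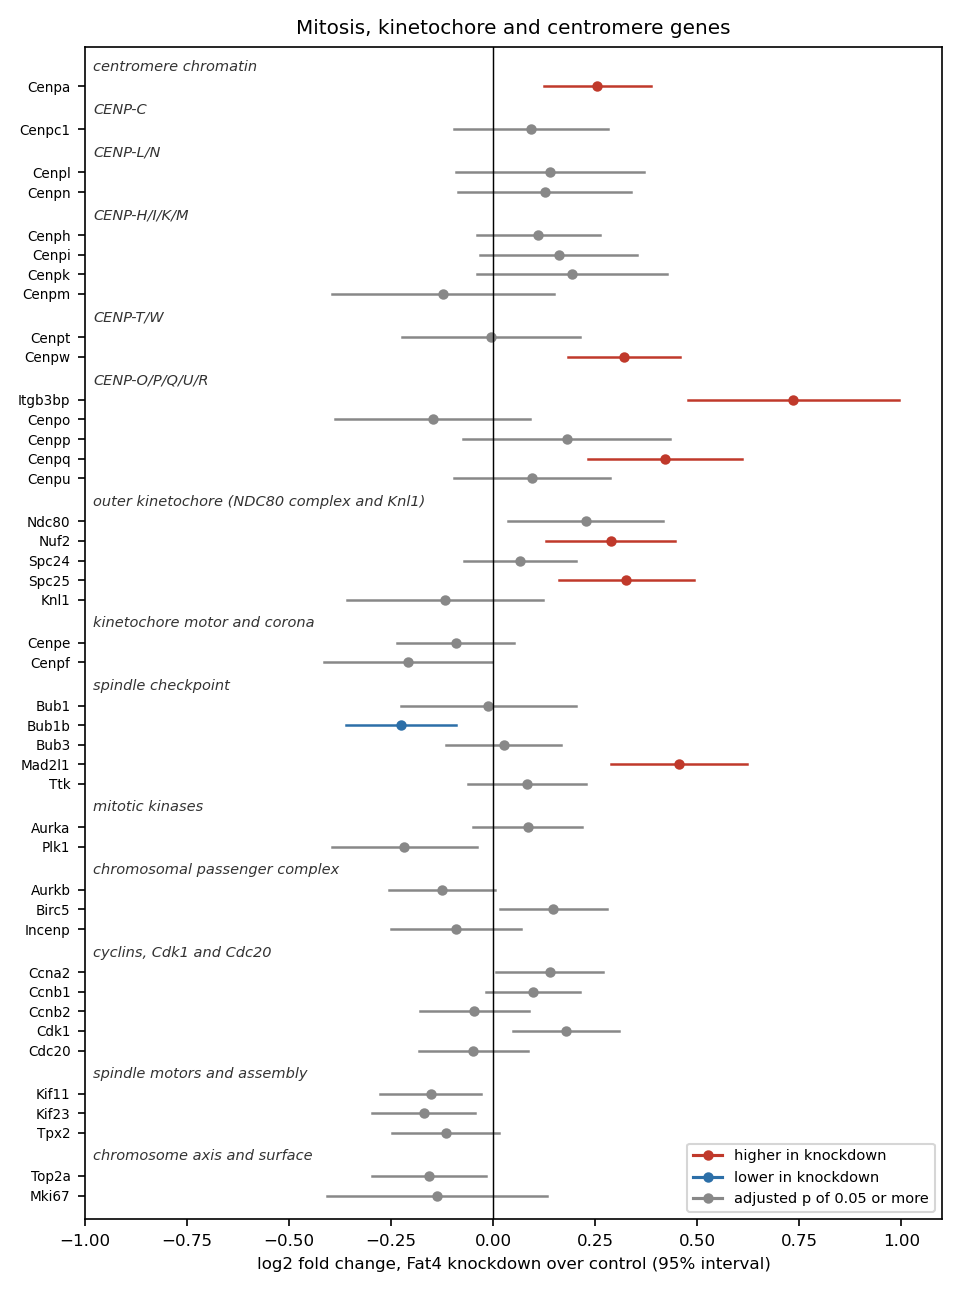
Log2 fold change of each of the 42 genes, Fat4 knockdown over control, as points with 95% intervals (horizontal axis), grouped down the page by role. Itgb3bp at 0.74 stands farthest to the right, and the motor, corona and chromosome axis genes lie left of 0, none of them past the adjusted threshold.

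Itgb3bp encodes CENP-R, a CCAN subunit first found in human cells as beta3-endonexin, a partner of the integrin beta 3 tail, and as a nuclear receptor coregulator. Its gene (ENSMUSG00000028549) is annotated on the minus strand of GRCm39 chromosome 4 from 99653639 to 99787010. It had 135, 122 and 111 counts in knockdown replicates 1 to 3, against 71, 71 and 89 in control replicates 1 to 3. Scaled, these were 12.05, 11.95 and 10.1 CPM in knockdown and 6.89, 6.27 and 7.24 CPM in control libraries. All knockdown values lay above all control values. The means were 11.4 ± 1.12 CPM in knockdown and 6.80 ± 0.49 CPM in control libraries (SD, n = 3 each), a 1.67-fold rise (log2 fold change 0.74, SE 0.12, 95% interval 0.48 to 0.99, edgeR adjusted p = 0.00197). The gene was singled out with its rise known from an earlier reading of these libraries. Its call held in all 18 other fits, where the log2 fold change ran from 0.51 to 0.82 and the adjusted p reached 0.0166. Per kilobase of annotated exon it was the scarcest of the 42 genes in control libraries, at 2.45 CPM per kilobase in knockdown and 1.47 in control libraries, next to Cenpo at 1.33 and 1.47.

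CENP-R works in a subcomplex with CENP-O, CENP-P, CENP-Q and CENP-U, which helps to bring Plk1 to the kinetochore and to bind microtubules. Among these partners Cenpq also rose. Cenpq (chromosome 17, 41233942 to 41245938) had 33.0, 37.3 and 32.8 CPM in knockdown and 28.2, 26.3 and 22.8 CPM in control libraries, with no overlap (log2 fold change 0.42, SE 0.09, edgeR adjusted p = 0.0065). It held its call in all 18 other fits, the smallest value being 0.31 with GC content and exon length offsets. Exons of Cenpq overlap those of Mmut on the opposite strand, which did not pass (log2 fold change 0.06). Cenpo, Cenpp and Cenpu did not pass. Cenpo had 9.66 ± 0.72 CPM in knockdown and 10.7 ± 0.93 CPM in control libraries (SD, n = 3 each), a log2 fold change of -0.15 with a 95% interval of -0.39 to 0.09. Cenpp was at 0.18 (-0.07 to 0.43) and Cenpu at 0.10 (-0.10 to 0.29).

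Among the remaining CCAN genes the histone-fold subunit Cenpw rose and its partner Cenpt did not pass. Cenpw (chromosome 10, 30070565 to 30076556) had 138, 130 and 123 CPM in knockdown and 108, 105 and 99.5 CPM in control libraries (log2 fold change 0.32, SE 0.06, edgeR adjusted p = 0.00525). Its coding sequence of 258 bases is the shortest of the 42, and with offsets for GC content and coding length its log2 fold change was -0.04 (adjusted p = 0.747). Its counts were not whole in 5 of 6 libraries, for a reason that was not tested. Cenpt had 22.1 ± 2.01 CPM in knockdown and 22.3 ± 2.77 CPM in control libraries (SD, n = 3 each), a log2 fold change of -0.01 (95% interval -0.22 to 0.21). The foundation subunit Cenpc1 (0.09) and Cenpl (0.14) and Cenpn (0.13) of the CENP-L/N group did not pass. Nor did Cenph (0.11), Cenpi (0.16), Cenpk (0.19) and Cenpm (-0.12) of the CENP-H/I/K/M group. In the CENP-H/I/K/M group the edgeR count was 0 of 4, with 0 at an unadjusted p under 0.05 and 0 by DESeq2 or limma-voom.

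Cenpa itself rose. This centromeric histone gene (chromosome 5, 30824121 to 30832174) had 436, 419.5 and 406 CPM in knockdown and 330.2, 372 and 355 CPM in control libraries, without overlap (1.19-fold, log2 fold change 0.26, SE 0.06, edgeR adjusted p = 0.0123). The call was lost without knockdown replicate 1 (0.23, adjusted p = 0.0563) and with GC content and coding length offsets (0.10, adjusted p = 0.36). Its counts were not whole in 4 of 6 libraries. At 71.8 CPM per kilobase in knockdown and 60.2 in control libraries it was the most abundant of the 17 centromere protein genes per exon length.

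Set against the other centromere proteins, Itgb3bp changed most. The 95% intervals of 12 of the 13 other CCAN genes lay wholly below its interval, the exception being Cenpq (0.23 to 0.61). Over all 41 other members 38 intervals lay below it, Cenpq, Mad2l1 and Spc25 being the exceptions. Within each library, the log2 ratio of Itgb3bp CPM to the geometric mean of the 13 others was -0.84, -0.87 and -1.12 in knockdown replicates 1 to 3 and -1.56, -1.63 and -1.39 in control replicates 1 to 3. The difference of the means was 0.58, with SDs of 0.15 in knockdown and 0.12 in control libraries (n = 3 each). Against Cenpo, Cenpp, Cenpq and Cenpu alone, the ratio was -0.46 ± 0.16 in knockdown and -1.03 ± 0.17 in control libraries (SD, n = 3 each), a difference of 0.56. The library sets did not overlap in either ratio. Neither ratio was adjusted for GC content or coding length, and with offsets for both the log2 fold change of Itgb3bp was 0.51 in place of 0.74. No test is given, since the comparison was chosen with the rise known. Without Itgb3bp, 3 of 16 centromere protein genes rose (Cenpq, Cenpw and Cenpa) and 0 fell by edgeR, with 4 at an unadjusted p under 0.05 in either direction, and DESeq2 and limma-voom each likewise called 0 of them lower. That is 18.8% of the 16, against 16.8% of all genes called and 8.73% called higher, and of the 3 only Cenpq kept its call with GC content and coding length offsets.

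**Figure D2:**
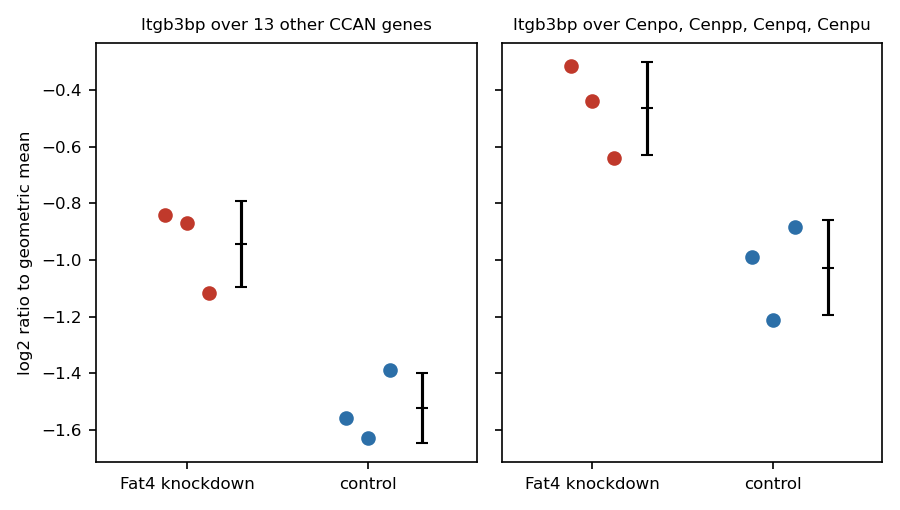
Log2 ratio of Itgb3bp CPM to the geometric mean of the 13 other CCAN genes (left) and of its 4 subcomplex partners (right), 1 point per library, with mean and SD bars, Fat4 knockdown left of control in each panel. Every knockdown point lies above every control point in both panels.

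The genome around Itgb3bp was read because its annotation is crowded (this look was chosen after its values were seen). In the GRCm39 coordinates of the table, Efcab7 (99717435 to 99769985, plus strand) lies wholly inside the annotated span of Itgb3bp. The annotated start of Itgb3bp is its far end at 99787010, and the nearest Itgb3bp exon ends at 99717423, with 11 bases between it and the first exon of Efcab7. Efcab7 encodes a ciliary EF-hand protein that acts in Hedgehog signalling. It had 7.23, 8.62 and 6.08 CPM in knockdown and 5.24, 4.50 and 3.99 CPM in control libraries, without overlap (log2 fold change 0.68, SE 0.16, edgeR adjusted p = 0.0125). Its call was lost without knockdown replicate 2 (0.55, adjusted p = 0.065), control replicate 2 (0.67, adjusted p = 0.052) or control replicate 3 (0.58, adjusted p = 0.0549). A single annotated Itgb3bp exon lies beyond the start of Efcab7, and it overlaps exons of Pgm1, a phosphoglucomutase gene on the opposite strand. Pgm1 did not pass, with 40.6 ± 5.18 CPM in knockdown and 45.6 ± 1.68 CPM in control libraries (SD, n = 3 each, log2 fold change -0.17). Since the strand setting of the counting is not known, reads in such overlaps cannot be assigned to a single gene with certainty. Exons of 9 members, Itgb3bp and Cenpq among them, overlap an opposite-strand gene with a mean of at least 10 counts. The other tested genes within 200000 bases, Alg6, Ror1 and the long noncoding ENSMUSG00000133849, did not pass either (0.14, -0.06 and 0.24).

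At the outer kinetochore the 4 genes of the NDC80 complex had log2 fold changes above 0, and 2 of them rose. Spc25 (chromosome 2, 69024239 to 69036538), part of the end that anchors the complex to the centromere, had 42.7, 43.2 and 44.5 CPM in knockdown and 36.1, 37.3 and 30.8 CPM in control libraries (log2 fold change 0.33, SE 0.08, edgeR adjusted p = 0.0117). Nuf2 (chromosome 1, 169325503 to 169359033), which pairs with Ndc80 at the end that grips the microtubule, had 38.2, 44.9 and 42.8 CPM in knockdown and 34.2, 35.2 and 33.7 CPM in control libraries (log2 fold change 0.29, SE 0.07, adjusted p = 0.0168). Neither gene's groups overlapped. Ndc80 (0.23, edgeR adjusted p = 0.0959) and Spc24 (0.07) did not pass. The scaffold gene Knl1, which recruits the Bub kinases, had a log2 fold change of -0.12 and did not pass. Spc25 lost its call without control replicate 3 (0.24, adjusted p = 0.0574). Nuf2 lost it without knockdown replicate 2 (0.24, adjusted p = 0.0809), knockdown replicate 3 (0.27, adjusted p = 0.0591), control replicate 2 (0.31, adjusted p = 0.0574) or control replicate 3 (0.27, adjusted p = 0.0588), and its counts were not whole in any of the 6 libraries.

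The spindle checkpoint held the second largest rise and the single fall. Mad2l1 encodes Mad2, which binds and restrains Cdc20 until all chromosomes are attached. The gene (chromosome 6, 66512374 to 66524204) had 172, 181 and 163 CPM in knockdown and 140.1, 124 and 112 CPM in control libraries (1.37-fold, log2 fold change 0.46, SE 0.08, edgeR adjusted p = 0.00247), and its call held in all 18 other fits, down to 0.28 with GC content and coding length offsets. Bub1b encodes BubR1, which joins Mad2 and Bub3 in the inhibitor of Cdc20. It (chromosome 2, 118428692 to 118472072) fell to 84.9, 80.04 and 83.5 CPM in knockdown, against 91.3, 97.9 and 101 CPM in control libraries (log2 fold change -0.23, SE 0.06, edgeR adjusted p = 0.025). The groups did not overlap in either gene, and they moved in opposite directions. The call of Bub1b was lost without any library but control replicate 1: -0.24, -0.20 and -0.23 without knockdown replicates 1, 2 and 3 (adjusted p = 0.0511, 0.0945 and 0.0628), and -0.22 and -0.19 without control replicates 2 and 3 (adjusted p = 0.1 and 0.101). It was also lost with GC content and coding length offsets (-0.12, adjusted p = 0.181). Bub1 (-0.01), Bub3 (0.03) and the checkpoint kinase gene Ttk (0.08) did not pass.

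**Figure D3:**
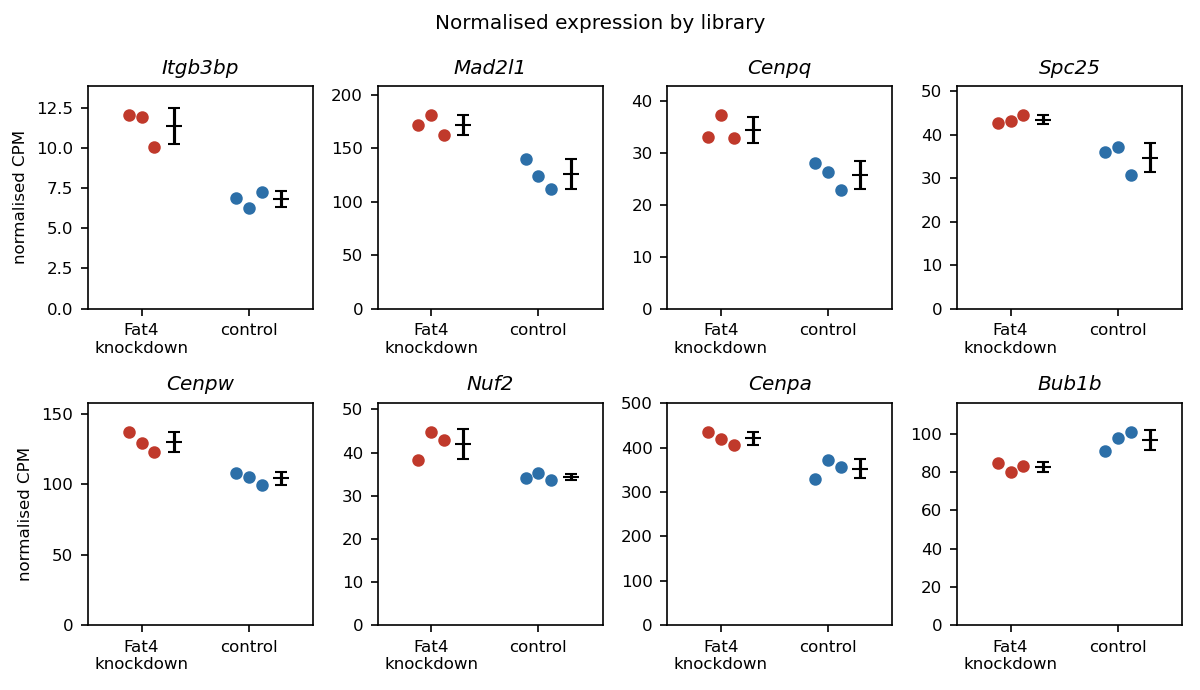
Normalised CPM (vertical axes, from 0) of the 8 genes past the threshold, 1 point per library, with mean and SD bars, Fat4 knockdown left of control. The 3 knockdown points lie above the 3 control points in all panels but that of Bub1b, where they lie below.

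The engine of mitotic entry did not pass the test. Cdk1, the kinase that drives mitosis, had 298.9 ± 4.19 CPM in knockdown and 264 ± 17.8 CPM in control libraries (SD, n = 3 each, log2 fold change 0.18, SE 0.06, edgeR adjusted p = 0.0584), and the groups did not overlap. DESeq2 and limma-voom, along with 4 other alternatives, called it higher. Its cyclin partners gave log2 fold changes of 0.14 for Ccna2, 0.10 for Ccnb1 and -0.05 for Ccnb2. Cdc20, the activator of the anaphase-promoting complex and the most abundant of the 42 per exon length at 203 CPM per kilobase in knockdown and 210 in control libraries, had a log2 fold change of -0.05 (95% interval -0.18 to 0.08). By edgeR 0 of these 5 genes passed, with 2 at an unadjusted p under 0.05.

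Mitotic kinases and the chromosomal passenger complex, which corrects faulty attachments, were mixed. Plk1, a kinase of centrosome and kinetochore function, had 96.1, 88.2 and 106 CPM in knockdown and 100.2, 117 and 120.4 CPM in control libraries, which overlapped (log2 fold change -0.22, edgeR adjusted p = 0.0877). Aurka, the spindle pole kinase, was at 0.08. In the passenger complex Birc5 (survivin) was at 0.15 and the kinase Aurkb at -0.12, both without overlap between groups, and the scaffold Incenp was at -0.09. By edgeR 0 of the 5 passed, with 2 at an unadjusted p under 0.05 (Plk1 and Birc5) and 0 by DESeq2 or limma-voom.

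Spindle motor, corona and chromosome axis genes all had negative log2 fold changes, none past the threshold. Kif11, the motor that pushes spindle poles apart, had 73.4, 71.6 and 72.4 CPM in knockdown and 78.8, 79.7 and 83.3 CPM in control libraries (log2 fold change -0.15, edgeR adjusted p = 0.0838). Kif23, a motor of the central spindle, had 75.3, 79.8 and 78.4 CPM in knockdown and 85.8, 86.9 and 90.0 CPM in control libraries (-0.17, adjusted p = 0.061). Neither pair of groups overlapped. Library-size scaling and the filter of 10 CPM in 3 libraries each called both lower, and GC content and exon length offsets called Kif11 lower. The spindle assembly factor Tpx2 was at -0.12. Top2a, the topoisomerase that untangles sister chromatids, was at -0.16 (edgeR adjusted p = 0.119), with 398 ± 28.3 CPM in knockdown and 444 ± 21.6 CPM in control libraries (SD, n = 3 each). Mki67, the proliferation marker that coats mitotic chromosomes, was at -0.14, the kinetochore motor gene Cenpe at -0.09 and the corona gene Cenpf at -0.21. Among these 7 genes, 4 had an unadjusted p under 0.05 by edgeR, and DESeq2 and limma-voom called 0.

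Over the 42 genes, the direction went with the length of the coding sequence, taken from GENCODE M21. At or below the members' median of 1258.5 bases, 17 of 21 genes had a log2 fold change above 0 (median 0.14), and 6 passed the test, all higher. Among all tested genes in that length range 14.6% rose and 6.27% fell. Above it 7 of 21 lay above 0 (median -0.09), 1 rose (Nuf2) and 1 fell (Bub1b), beside 2.49% higher and 11.6% lower among all tested genes of that length. Spearman's rho between coding length and log2 fold change was -0.65 over the 42 genes, which share the 6 libraries, and -0.34 over the 10921 tested genes with a coding length. The same split was seen in all those genes, where 58.9% of the shorter and 33.0% of the longer had a log2 fold change above 0, with medians of 0.05 and -0.08. With annotated exon length in place of coding length rho was -0.15 over the members and -0.22 over the 10921 genes. With GC percent it was -0.42 over the members and -0.29 over the 10921 genes.

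**Figure D4:**
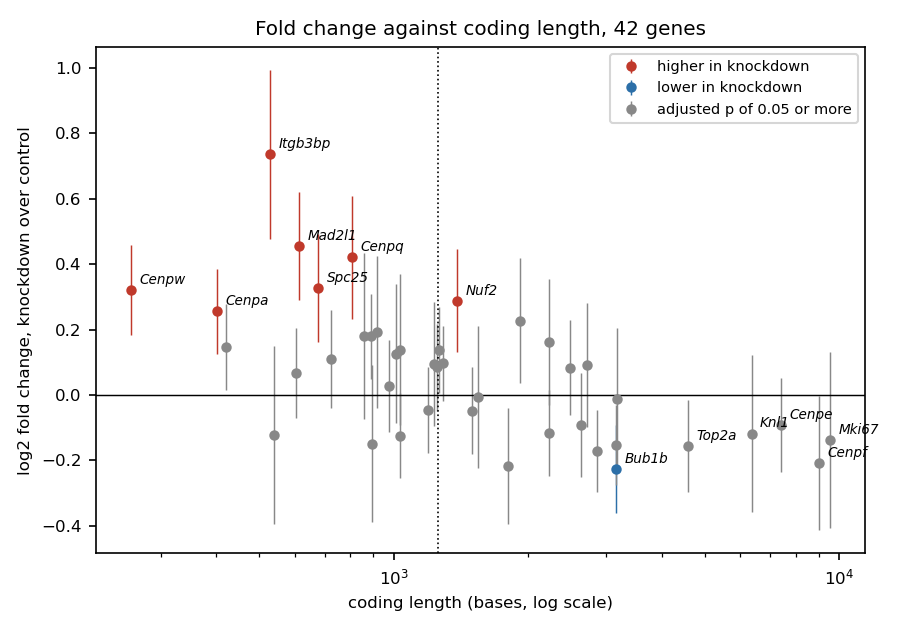
Log2 fold change (Fat4 knockdown over control, vertical axis, with 95% intervals) against coding length in bases (horizontal log axis) for the 42 genes, with a dotted line at their median length. Of the genes that rose, 6 lie left of the line, and Bub1b and the uncalled long genes Top2a, Knl1, Cenpe, Cenpf and Mki67 lie right of it below 0.

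The same trend can be read library by library, which restates the fold changes and adds no test. The correlation, over all 10921 genes, of coding length with a library's deviation from the mean of the 6, in log2(CPM + 0.5), was -0.39, -0.17 and -0.16 in knockdown replicates 1 to 3 and 0.08, 0.26 and 0.34 in control replicates 1 to 3. The fit was repeated with offsets fitted jointly for GC content and coding length, which were chosen after the data had been seen. Such offsets cannot separate GC content from coding length, nor the trend from a group difference that follows length. With these offsets 5 of the 8 calls held (Itgb3bp 0.51, Mad2l1 0.28, Cenpq 0.32, Nuf2 0.24 and Spc25 0.23). Those of Cenpa, Cenpw and Bub1b did not, and rho over the members was -0.35. With GC content and exon length offsets the 8 calls held, Kif11 was added as lower, and rho was -0.66. What gave rise to the trend was not tested.

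Promoters were then read for the elements through which late cell cycle genes are known to be timed. RefSeq sequences (GRCm38.p6, from 250 bases before to 50 after the start) were at hand for 37 of the 42 genes, with 40 starts. The letters TTTGAA, core of the cell cycle genes homology region that the MuvB complex binds, stood on either strand in 21 of the 40 (52.5%), against 17.9% of all 32851 promoters in the table and 11.93% of the promoters of tested genes. TTCGAA, its rarer form, stood in 4 (10%), against 1.56% of all promoters and 2.04% of those of tested genes. CCAAT, the NF-Y box, stood in 31 (77.5%), against 37.4% of all and 38.3% of those of tested genes. The E2F letters TTTGGCGC or TTTCGCGC stood in 2 (5%, Cdk1 and Cenpl), against 0.813% of all and 1.68% of those of tested genes. In Cenpw a CCAAT and a TTTGAA on the other strand overlap. These are matches of letters, not shown sites.

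Of the 7 genes that rose, 3 held TTTGAA or TTCGAA, against 19 of the 30 other members with a promoter. CCAAT was held by 4 of the 7, against 24 of the 30. Neither was held by 3 of the 7 (Itgb3bp, Mad2l1 and Nuf2), against 4 of the 30, a difference that was not tested. The 250 bases before the start are given for Itgb3bp and Mad2l1, which rose most and hold none of the letters searched, for Spc25, which rose and holds CCAAT in this stretch, and for Ccnb2 and Top2a, rich in them and not past the threshold. Spc25 also holds TTTGAA past its start, outside the stretch shown. The 5 stretches were picked by call and by letters, so they cannot show a link between them. Cenpa and Cenpw hold both TTTGAA and CCAAT and rose, and Birc5, Cenpo, Cenpp and Cenpt hold neither element and were not called. Capitals mark the letters searched on either strand. The Itgb3bp stretch is in GRCm38.p6 coordinates. Whether it precedes the annotated far start of Itgb3bp or the Itgb3bp exon next to Efcab7 was not determined.
Itgb3bp, chr4:99829159-99829408, minus strand: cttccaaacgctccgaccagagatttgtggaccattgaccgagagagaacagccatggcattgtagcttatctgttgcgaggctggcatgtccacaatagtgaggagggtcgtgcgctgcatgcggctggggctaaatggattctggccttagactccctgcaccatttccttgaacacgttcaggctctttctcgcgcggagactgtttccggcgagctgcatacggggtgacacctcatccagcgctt
Mad2l1, chr6:66534971-66535220, plus strand: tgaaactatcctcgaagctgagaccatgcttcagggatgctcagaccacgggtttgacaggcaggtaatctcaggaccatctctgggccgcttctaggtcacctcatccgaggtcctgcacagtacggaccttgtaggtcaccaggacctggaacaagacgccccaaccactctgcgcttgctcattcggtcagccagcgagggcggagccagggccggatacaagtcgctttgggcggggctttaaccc
Spc25, chr2:69206214-69206463, minus strand: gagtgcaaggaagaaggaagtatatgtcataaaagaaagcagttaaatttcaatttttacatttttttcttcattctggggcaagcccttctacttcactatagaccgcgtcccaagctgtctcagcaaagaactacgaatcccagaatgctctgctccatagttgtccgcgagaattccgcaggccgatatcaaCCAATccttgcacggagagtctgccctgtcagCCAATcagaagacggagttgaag
Ccnb2, chr9:70421555-70421804, minus strand: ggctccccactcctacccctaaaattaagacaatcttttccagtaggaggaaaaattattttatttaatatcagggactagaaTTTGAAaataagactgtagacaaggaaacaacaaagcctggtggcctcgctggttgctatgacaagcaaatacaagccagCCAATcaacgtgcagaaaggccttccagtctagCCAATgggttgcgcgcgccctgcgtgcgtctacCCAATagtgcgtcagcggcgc
Top2a, chr11:99024190-99024439, minus strand: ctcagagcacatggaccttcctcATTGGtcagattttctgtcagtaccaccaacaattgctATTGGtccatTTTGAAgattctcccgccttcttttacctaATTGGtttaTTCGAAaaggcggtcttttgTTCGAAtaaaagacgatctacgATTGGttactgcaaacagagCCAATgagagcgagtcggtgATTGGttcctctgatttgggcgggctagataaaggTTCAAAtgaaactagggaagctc

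Other genes of mitosis outside the 42 were read from lists of 103 genes, all of which passed the filter. Of these 9 rose and 5 fell, 13.6% against 16.8% of all genes, with a median log2 fold change of -0.02. Library-size scaling turned this balance, with 7 higher and 13 lower. The count was 7 by DESeq2 (6 higher and 1 lower), 24 without control replicate 1 and 4 without control replicate 2 or control replicate 3, and 6 without knockdown replicate 1 or knockdown replicate 2. In the other kinetochore genes 7 of 18 had an unadjusted p under 0.05 in either direction. The test was passed by 2 (11.1%, against 16.8% of all genes called and 8.73% called higher), both higher. They were Ska2 and Ska1, of the complex that follows shrinking microtubule ends. Ska2 had 158 ± 6.30 CPM in knockdown and 119 ± 11.7 CPM in control libraries (SD, n = 3 each, log2 fold change 0.41, edgeR adjusted p = 0.00285), and Ska1 had 73.5 ± 7.28 CPM in knockdown and 55.7 ± 10.7 CPM in control libraries (0.41, edgeR adjusted p = 0.0229).

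Of 7 other centromere genes (CCAN and CENP-A loading genes, and Cenpb, which binds a motif in satellite DNA) 2 passed (28.6%). Cenpx, a small histone-fold CCAN subunit, rose (log2 fold change 0.29, edgeR adjusted p = 0.0278), and Cenpb fell (-0.21, adjusted p = 0.0479). The fall of Cenpb was lost in 13 of 18 alternatives, RLE scaling, upper-quartile scaling, DESeq2 and limma-voom among them, and the rise of Cenpx in 7. In the anaphase-promoting complex and its activators 1 of 18 rose, the small subunit gene Anapc16 (0.35, adjusted p = 0.00356), and 1 fell, the activator gene Fzr1 (-0.30, adjusted p = 0.0235). Of 15 condensin, cohesin and separase genes 2 passed (13.3%, against 16.8% of all genes called and 8.04% called lower), both lower. They were Ncapd2 of condensin (-0.25) and Stag2 of cohesin (-0.30), with 4 of 15 at an unadjusted p under 0.05 in either direction. The chromosome alignment motor gene Kif18a rose (0.35) and the cytokinesis scaffold gene Anln fell (-0.19), out of 21 spindle and cytokinesis genes. The falls of Anln, Fzr1, Ncapd2 and Stag2 were lost in 10, 8, 7 and 5 of the 18 alternatives. Each of these, and that of Cenpb, was lost without knockdown replicate 1, without control replicate 2 and without control replicate 3. Of 24 genes of mitotic entry control and transcription 8 had an unadjusted p under 0.05 in either direction. The test was passed by 4 (16.7%, against 16.8% of all genes called and 8.73% called higher), all higher. They were Cks2 and Cks1b, small Cdk-binding proteins, and the kinase genes Pbk and Melk (0.33, 0.24, 0.26 and 0.21). Among the genes that rose, the call of Anapc16 held in all 18 alternatives. That of Ska2 was lost in 1, that of Cks2 in 2, those of Ska1, Kif18a, Pbk and Cks1b in 4 each and that of Melk in 8. The loss of Ska2 came with GC content and coding length offsets. Cks2, Cks1b and Cenpx lost their calls with these and with GC content and exon length offsets, as did the falls of Cenpb, Ncapd2, Fzr1 and Anln. Pbk and Melk lost theirs with the exon length offsets. Ska1, Kif18a and Stag2 kept theirs with either.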

How the data were processed

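Per the labels' protocols, mRNA of 3 knockdown and 3 control samples was reverse transcribed and the cDNA tagmented. The submitters' processing notes name fastp 0.24.0, STAR 2.7.11, SAMtools 1.22.1 and the GRCm39 genome. Which program counted the reads, with which annotation and strand option, is not stated. The deposited values are estimated counts per gene, 29.0% of the nonzero ones not whole (tolerance 1e-06). The deposited CPM values equal each count over its library's total and were only checked. Coordinates are those of the table (1-based).

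Before testing, values were rounded, 92 spike-in rows were left out, genes were kept by filterByExpr and scaled by TMM, and knockdown was compared with control by glmQLFit and glmQLFTest of edgeR 4.0.16 in R 4.3.3 without a block (Benjamini-Hochberg adjusted p under 0.05). SE is the size of the log2 fold change over the square root of F, and intervals are at 95%. CPM means ± SD use TMM-scaled totals. Ratios to other CCAN genes used log2(CPM + 0.5) on unscaled totals. GC percent and coding length came from the GENCODE M21 transcript with the longest coding sequence, matched by gene identifier (GC percent and exon length for 95.6% and GC percent and coding length for 81.7% of tested genes). Offsets were smooth per-library trends fitted with mgcv 1.9-3. Alternatives were 3 other scalings, DESeq2 1.42.0, limma-voom (limma 3.58.1), a fit with no filter or with a minimum of 10 CPM in 3 libraries, a replicate block, rounding down, leaving out mitochondrial and ribosomal protein genes, offsets, and leaving out each library.

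The members, lists and roles were chosen with earlier results of these data known. All 42 members could be named; of the 103 other genes, those past the threshold, up to 4 per list by smallest adjusted p. Efcab7, Pgm1 and other neighbours of Itgb3bp were added after the values were seen. Simulated counts tested the workflow for knockdown against control (13223 genes tested, 198 calls, 8 false): it called 41 of 50 genes changed 1.3-fold and 49 of 50 changed 1.5-fold. The changed genes were picked above a mean of 10 CPM, and all genes had a common dispersion and no trend with length. These rates need not hold for scarcer genes or under such a trend. The biological coefficient of variation was 6.31%. Replicates of a group differed from each other by more than counting noise, and all 6 libraries entered.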

Additional observations from a re-analysis of the deposited data

How the results depend on the processing

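Of the 8 calls, those of Itgb3bp, Mad2l1 and Cenpq held in all 18 alternatives, and 9 of the 34 other members passed in at least 1. Members lower numbered 5 with library-size scaling, 3 with no filter, 3 at 10 CPM, 2 with GC content and exon length offsets and 0 with GC content and coding length offsets, against 1. The coding length offsets also left 5 members changed and 1 other centromere protein gene in place of 3, and were chosen after the data had been seen. The members' median was 0.027 with library-size scaling, 0.035 with exon length offsets and 0.042 with coding length offsets. Pathway genes changed numbered 7 in place of 14 with DESeq2 and with either offset.

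Without 1 library each, all genes changed ran from 922 to 3032, members changed from 5 to 14, members higher from 5 to 11, members lower from 0 to 3, pathway genes changed from 4 to 24 and the median from 0.054 to 0.082. All genes changed numbered 1194 without knockdown replicate 1, 1110 without knockdown replicate 2, 922 without control replicate 2 and 1096 without control replicate 3, and each count without 1 library rests on fewer samples.

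Of the members whose sign turned, Cenpw alone was called in the first place, and none passed the test with the turned sign. Cenpt was at 0.0024 with RLE scaling, 0.0079 with upper-quartile scaling, 0.0013 with DESeq2, 0.053 with exon length offsets and 0.090 with coding length offsets. Bub1 was at 0.0021 with upper-quartile and Bub3 at -0.032 with library-size scaling. Cenph was at -0.035 with exon length offsets. With coding length offsets Cenpw was at -0.038, Incenp at 0.049 and Cdc20 at 0.053. Without 1 library Cenpt ran from -0.106 to 0.052, Bub1 from -0.128 to 0.084, Bub3 from -0.013 to 0.083 and Cenpm from -0.239 to 0.0073. The cause was not tested.

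Replicate numbers gave no sign of pairing: same-numbered deviations correlated at -0.20, -0.16 and 0.14, against -0.20 to 0.27 for differently numbered ones. These correlations cannot show that the samples are unpaired. With the number as a replicate block, 1958 genes and the same 8 members were called, Itgb3bp at 0.73. Scalings, tests and offsets were not run for the difference in the ratio of Itgb3bp to other CCAN genes, which ran from 0.53 to 0.67 without 1 library. The ratio is taken within a library, which does not remove a trend with GC content or coding length. How far the ratio would move with offsets for these was not tested. Itgb3bp and Efcab7, at 3.99 to 12.05 CPM, rest on the fewest counts of the genes described as higher.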
